A study of Mus musculus with 60 samples.

Results

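The genes described here are the 4 opioid receptor genes Oprm1, Oprd1, Oprk1 and Oprl1, the cannabinoid receptor gene Cnr1, and 3 enzyme genes of the endocannabinoids, Dagla, Mgll and Faah. They were chosen by gene symbol, and each symbol matched 1 entry, so that they make up 8 of the 47574 gene entries used. RNA-Seq was done on brain tissue of c57BL-6N mice aged 3 months, in 60 libraries that the labels place in 10 groups of 6, each with 3 males and 3 females. The labels name cortex and striatum of the Δ12 line, with the genotypes +/+, Δ12/+ and Δ12/Δ12, and cortex and striatum of the KO line, with the genotypes +/+ and KO/+. The Δ12 allele lacks part of an exon of the huntingtin gene Htt and carries a new splice donor. The KO allele came from a founder in which that edit was imprecise and the normal splice donor was lost. It was studied in heterozygotes, no agent was given to any group, and the labels do not say which libraries share a mouse.

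Opioid and cannabinoid receptors couple to inhibitory G proteins, which lower cyclic AMP, open inwardly rectifying potassium channels and close presynaptic calcium channels. Opioid receptors answer to peptides cut from precursors made by neurons, among them the enkephalins of the indirect-pathway and the dynorphins of the direct-pathway projection neurons of the striatum. Endocannabinoids are lipids made on demand in the postsynaptic cell. They travel back to the receptor CB1 on presynaptic terminals and reduce transmitter release. CB1 is abundant on striatal projection neurons and, in the cortex, on interneurons that hold cholecystokinin.

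The labelled tissue and the expression of regional marker genes went separate ways, so levels are given by expression and comparisons by label. The 30 libraries with Slc17a7, the vesicular glutamate transporter of cortical excitatory neurons, above 100 FPKM are called cortex-like and the other 30 striatum-like. FPKM are counts of sequenced fragments relative to transcript length and library size, and all levels below are FPKM rescaled by the median ratio of a library's genes to their geometric mean, unless said otherwise. The cortex-like set held all libraries labelled +/+ and Δ12/+ of the Δ12 line and the males of Δ12/Δ12, whatever their labelled tissue. The striatum-like set held the females of Δ12/Δ12 and all libraries of the KO line. Each set held 15 libraries of either labelled tissue. Slc17a7, which defined the sets, was at 104 to 197 in the cortex-like and at 5.60 to 69.6 in the striatum-like set. The dopamine receptor gene Drd2 of indirect-pathway neurons was at 0 to 15.9 and at 34.8 to 71.3. All 8 markers of striatal projection neurons were higher in every striatum-like than in every cortex-like library. Of the 5 markers of cortical excitatory neurons besides Slc17a7, Emx1 was lower in every striatum-like library and the ranges of the other 4 overlapped. Htt was at 12.7 to 19.7 in the 6 striatal libraries labelled KO/+ and at 16.8 to 20.7 in those labelled +/+ of the same line, so that the lower level of a KO allele was not seen in each of them. The sex-linked transcripts Xist and Ddx3y went with the labelled sex in 30 of the 60 libraries. The deposited tables carry running numbers, and all of those numbered 1 to 30 were cortex-like and all of those numbered 31 to 60 striatum-like. Where the sex-linked transcripts went against the labelled sex, table and label disagree, and the covariate for labelled sex used below carries this mismatch. Which sample each table belongs to could not be told here. Every comparison of genotype, line and tissue below rests on the labels as given. Groups are therefore named by their labels only, and no library was moved. The estimated depth was about 12700000 to 19400000 fragments in the cortex-like and 16400000 to 27500000 fragments in the striatum-like libraries.

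Between the sets, 4 of the 5 genes that were higher in the striatum-like libraries had ranges that did not overlap, and so did 1 of the 3 that were lower. The receptors Cnr1, Oprd1 and Oprk1 and the synthetic enzyme Dagla were higher in every striatum-like library, and the degrading enzyme Faah was lower in every one. Among all 16076 genes with a mean of at least 0.5 over the 60 libraries, 19.3% were higher and 16.9% were lower in every striatum-like library, so 4 and 1 of 8 genes are to be read against these shares. Because the sets were defined by expression, their differences are given as values without a test. In such bulk tissue, fewer cells of a type and less RNA per cell cannot be told apart.

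**Figure D1:**
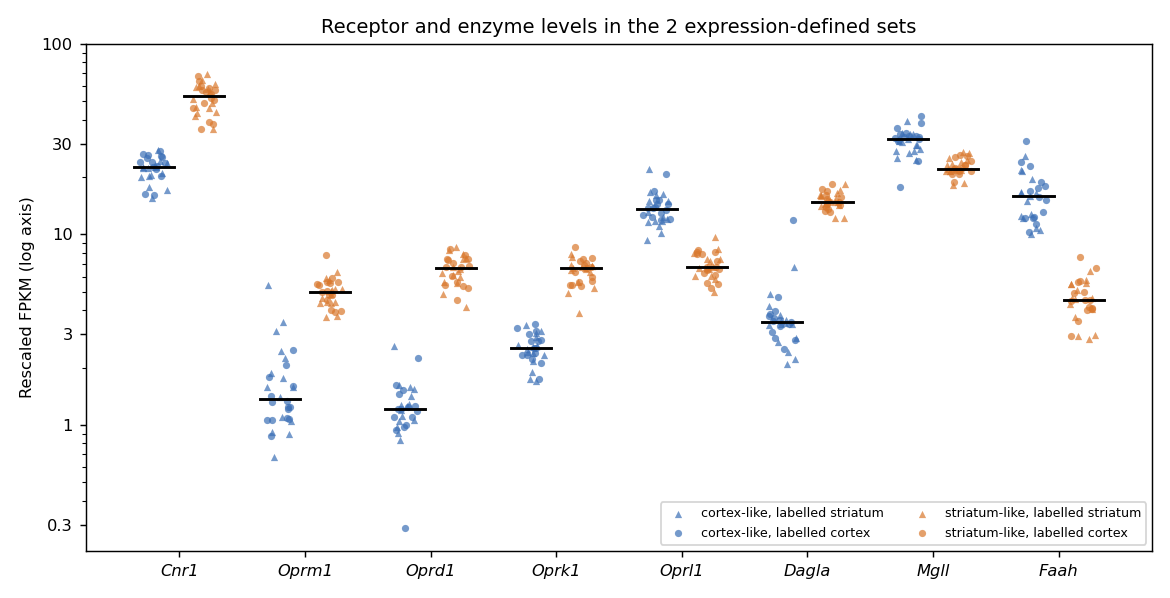
Rescaled FPKM on a log axis for the 8 genes in 60 libraries. Each point is 1 library (triangles, labelled striatum; circles, labelled cortex), blue for the cortex-like and orange for the striatum-like set, and bars are medians. The sets are apart for Cnr1, Oprd1, Oprk1, Dagla and Faah and meet for Oprm1, Oprl1 and Mgll, while triangles and circles are mixed within each set.

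Cnr1 encodes CB1, the main cannabinoid receptor of neurons, and lies at chr4:33924593-33948831 on the plus strand of GRCm38 (ENSMUSG00000044288). It was at 15.6 to 27.6 in the cortex-like libraries, with a median of 22.6, and at 35.6 to 69.4 in the striatum-like ones, with a median of 53.5. The medians thus differed 2.37-fold, by 1.22 on the log2(rescaled FPKM + 0.5) scale used for all differences below. With quantile normalization in place of the rescaling this difference was 1.84.

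Oprd1, the receptor for enkephalins known as delta, lies at chr4:132110726-132144486 on the minus strand (ENSMUSG00000050511). Its levels ran from 0.287 to 2.60 around a median of 1.21 in the cortex-like set and from 4.17 to 8.64 around 6.66 in the striatum-like set. At 5.50-fold, or 2.07 on the log2 scale, it was the member whose medians differed most. No striatum-like library came near the highest cortex-like one.

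Oprk1, the kappa receptor on which dynorphins act, lies at chr1:5588466-5606131 on the plus strand (ENSMUSG00000025905). It was at 1.70 to 3.39 (median 2.55) and at 3.88 to 8.62 (median 6.65), a difference of 1.23 on the log2 scale. The lowest striatum-like value, that of the library labelled striatum KO-line +/+ female 3, was 3.88, against 3.39 for the highest cortex-like one.

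Oprm1, the mu receptor of morphine and beta-endorphin, lies at chr10:6758506-7038198 on the plus strand (ENSMUSG00000000766). It was at 0.683 to 5.45 (median 1.37) in the cortex-like set and at 3.70 to 7.83 (median 5.00) in the striatum-like set. The medians differed 3.65-fold, by 1.56 on the log2 scale, and 29 of 30 cortex-like libraries were below every striatum-like one. The exception, at 5.45, was the library labelled striatum Δ12/+ male 2. Oprm1 was also the least precisely measured member. The authors' 95% interval reached a median of 71.7% above the value in the cortex-like set, with a highest of 882%, against 24.4% in the striatum-like set. GENCODE M21 lists 31 transcripts of Oprm1, and the genes Gm10945 and Ipcef1 overlap it on the other strand. The kit keeps strand, but the strand setting of the quantification is not given in the sources used here, so reads of such overlapping genes may be mixed in.

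Oprl1, the receptor for nociceptin, lies at chr2:181715016-181720985 on the plus strand (ENSMUSG00000027584) and was the receptor with the opposite order. It was at 9.39 to 22.0 (median 13.6) in the cortex-like and at 5.00 to 9.72 (median 6.73) in the striatum-like set, 2.01-fold higher in the cortex-like medians and lower by 0.96 on the log2 scale in the striatum-like set. The ranges met through 1 library on either side, and without the first of these they were apart. These were the cortex-like library labelled striatum Δ12/+ male 3, at 9.39, and the striatum-like library labelled striatum KO-line +/+ female 1, at 9.72.

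The enzymes also went in both directions. Dagla, the diacylglycerol lipase that makes 2-arachidonoylglycerol in neurons, lies at chr19:10245265-10304877 on the minus strand (ENSMUSG00000035735). It was at 2.08 to 12.0 (median 3.46) in the cortex-like set and at 12.2 to 18.3 (median 14.8) in the striatum-like set, a 4.29-fold difference of medians and 1.95 on the log2 scale. The antisense gene AC132148.1 overlaps Dagla, with the same limit on strand. The sets were almost in contact through a single cortex-like library, labelled cortex Δ12-line +/+ female 1, at 12.0. Without it and the library labelled striatum Δ12/+ male 3, the highest cortex-like level of Dagla was 4.88.

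Mgll, the lipase that breaks 2-arachidonoylglycerol down, lies at chr6:88724412-88828360 on the plus strand (ENSMUSG00000033174) and overlaps the antisense gene Gm26588. It was at 17.7 to 41.9 (median 31.7) in the cortex-like and at 18.1 to 27.2 (median 22.2) in the striatum-like set. This was the smallest difference among the members, 1.43-fold and −0.51 on the log2 scale, and it was −0.13 with quantile normalization. Of all genes, 65.0% differed at least as much between the sets.

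Faah, the hydrolase that breaks down anandamide, lies at chr4:115967145-116017926 on the minus strand (ENSMUSG00000034171). It was at 10.1 to 31.1 (median 15.8) in the cortex-like set and at 2.82 to 7.59 (median 4.54) in the striatum-like set, 3.49-fold higher in the cortex-like medians and −1.70 on the log2 scale. Dagla and Faah act on different endocannabinoids, and the order of their levels was reversed from set to set. In the cortex-like medians Faah was above Dagla, and in the striatum-like medians Dagla was above Faah. Mgll, which breaks down the product of Dagla, was above Dagla in the medians of both sets (31.7 and 3.46, 22.2 and 14.8).

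The sequences just before the first annotated start are shown for Cnr1 and Oprd1, whose levels went together across striatum-like libraries (below), and for Faah, which had the opposite order of the sets. They are the 250 bases upstream of the start in RefSeq on GRCm38.p6, read 5′ to 3′ on the strand of the gene. Of the 8 members, 6 were matched in that table. Capitals mark GC boxes (GGGCGG, or CCGCCC on the other strand). The windows are chr4:33924014-33924263 (plus strand), chr4:132144487-132144736 (minus strand) and chr4:116017925-116018174 (minus strand).
Cnr1: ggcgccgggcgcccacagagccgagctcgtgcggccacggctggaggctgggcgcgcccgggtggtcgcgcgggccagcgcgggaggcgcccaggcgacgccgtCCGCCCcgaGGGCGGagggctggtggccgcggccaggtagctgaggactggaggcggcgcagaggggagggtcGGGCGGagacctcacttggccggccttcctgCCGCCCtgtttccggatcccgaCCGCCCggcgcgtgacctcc
Oprd1: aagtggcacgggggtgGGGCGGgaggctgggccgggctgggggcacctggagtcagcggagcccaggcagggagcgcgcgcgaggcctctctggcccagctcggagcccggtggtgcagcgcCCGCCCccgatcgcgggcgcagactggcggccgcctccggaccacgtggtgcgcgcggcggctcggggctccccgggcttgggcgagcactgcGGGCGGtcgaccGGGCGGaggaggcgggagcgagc
Faah: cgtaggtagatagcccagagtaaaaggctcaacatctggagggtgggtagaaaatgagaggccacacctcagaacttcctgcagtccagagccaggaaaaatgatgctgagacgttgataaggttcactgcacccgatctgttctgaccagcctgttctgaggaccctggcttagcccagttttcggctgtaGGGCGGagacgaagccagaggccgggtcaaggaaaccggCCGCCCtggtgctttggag
The window of Cnr1 held 5 GC boxes and 36 CG dinucleotides, that of Oprd1 held 4 and 34, and that of Faah held 2 and 9. Of 32851 promoters of the same length, 32.7% held at least 1 GC box, and the median number of CG dinucleotides was 6. The letters TATAAA, or TTTATA on the other strand, were in none of these 3 windows and in 12.4% of all promoters. The letters TGACG or CGTCA, the core of the cyclic AMP response element, was in none of the 3 and in 17.8% of all. The windows before the first annotated starts of the other 3 matched members held no GC box, with 0 CG dinucleotides for Oprm1, 3 for Oprl1 and 23 for Mgll, and that of Oprl1 held 1 match to the TATA letters. Several members have more than 1 annotated start. The windows before the later starts of Cnr1 held no GC box, with 28 and 5 CG dinucleotides. That before the later start of Mgll held 1 GC box and 40 CG dinucleotides. A match is a description of letters and not a site of binding.

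Levels per length allow the members to be ordered within a set. In the striatum-like set, Cnr1 (53.5) exceeded Mgll (22.2) without overlap, and Dagla (14.8) exceeded Oprl1 without overlap. Mgll and Dagla overlapped in range, but Mgll was higher in 30 of 30 libraries. Oprl1, Oprd1 and Oprk1 had medians of 6.73, 6.66 and 6.65, and Oprl1 exceeded Oprd1 in 18 and Oprd1 exceeded Oprk1 in 16 of 30 libraries, so these neighbours did not differ beyond their spread. Oprm1 exceeded Faah, the lowest member, in 18 of 30. In the cortex-like set the order was Mgll, Cnr1, Faah, Oprl1, Dagla, Oprk1, Oprm1 and Oprd1. All neighbours overlapped in range there. Mgll exceeded Cnr1 in 29, Oprl1 exceeded Dagla in 30, and Oprm1 exceeded Oprd1 in 19 of 30 libraries.

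The members were more variable among cortex-like than among striatum-like libraries, except for Cnr1. The coefficient of variation was 57.7% in the cortex-like and 17.5% in the striatum-like set for Oprm1, 47.5% and 10.3% for Dagla, and 33.0% and 17.9% for Oprd1. For Cnr1 it was 14.9% and 17.9%. A pair of cortex-like libraries stood apart. One of them, labelled cortex Δ12-line +/+ female 1, showed the highest Dagla (12.0) and the lowest Oprd1 (0.287) and Mgll (17.7) of its set. The other, labelled striatum Δ12/+ male 3, showed the highest Oprd1 (2.60) and Drd2 (15.9) of its set. Without both, the variation of Dagla in the cortex-like set was 19.7% and that of Oprd1 was 23.5%, while that of Oprm1 was 58.8%. The order of the medians of the sets was the same for all 8 members without both.

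Marker genes of other cells also differed between the sets. The summed level of 3 choroid plexus markers (Ttr, Folr1 and Kcnj13) had a median of 7.79 (2.01 to 372) in the cortex-like and 956 (30.7 to 2068) in the striatum-like set. Markers of the thalamus (Tcf7l2, Lef1 and Prkcd) summed to medians of 1.31 and 20.1, and those of the hypothalamus (Pmch, Hcrt and Avp) to 72.2 and 2.52. The 2 oligodendrocyte markers summed to 256 and 455, and the 5 interneuron markers to 626 and 155. The part of these cells in the differences of the members was not tested.

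Other genes of the same pathways were taken from a list of ligand precursors, enzymes, G proteins, effectors and lipid carriers. Of the 36 with a mean of at least 0.5, 10 were higher in every striatum-like library, 8 were lower in every one and 18 overlapped. These counts, and those for parts of the list below, are to be read against the 19.3% and 16.9% of all 16076 genes. The median difference over the list was 0.24 on the log2 scale, against 0.026 for all genes. Among the ligand precursors, proenkephalin Penk had medians of 36.3 and 384, and prodynorphin Pdyn of 7.61 and 37.1. Both were higher in every striatum-like library. Pomc, the precursor of beta-endorphin, had medians of 2.58 and 0.521, and Pnoc, the precursor of nociceptin, of 1.05 and 0.689. Both of these overlapped. Pomc, with a lower median in the striatum-like set, thus went opposite to Oprm1, a receptor gene of its product. The medians of Penk and Oprd1, Pdyn and Oprk1, and Pnoc and Oprl1 went the same way. These pairs take a single receptor for each precursor, and the medians of Penk and Oprm1 went the same way too. No test was made of these pairs.

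Of 13 G proteins and regulators, 6 were higher and 1 was lower without overlap. Gnao1, the main inhibitory G protein of the brain, had medians of 29.2 and 188, and Gnal, the stimulatory G protein of striatal neurons, of 10.5 and 97.1. Among the effectors, the adenylyl cyclase gene Adcy5 of the striatum had medians of 5.48 and 171, while the potassium channel gene Kcnj6 had 51.8 and 3.48. Of the 10 other enzymes of endocannabinoid synthesis and breakdown, 3 were lower and none was higher without overlap. These 3 were Abhd6, a second lipase of 2-arachidonoylglycerol (19.3 and 9.16), Gde1 (103 and 56.9) and the cyclooxygenase gene Ptgs2 (4.31 and 0.328). Cnrip1, which encodes a protein that binds CB1, was at 18.0 and 6.24 and was also lower in every striatum-like library, opposite to Cnr1. The lipid carriers Fabp5 and Fabp7 were lower as well. Cnr2, Gpr55 and Trpv1 had means under 0.5 and were not tested.

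**Figure D2:**
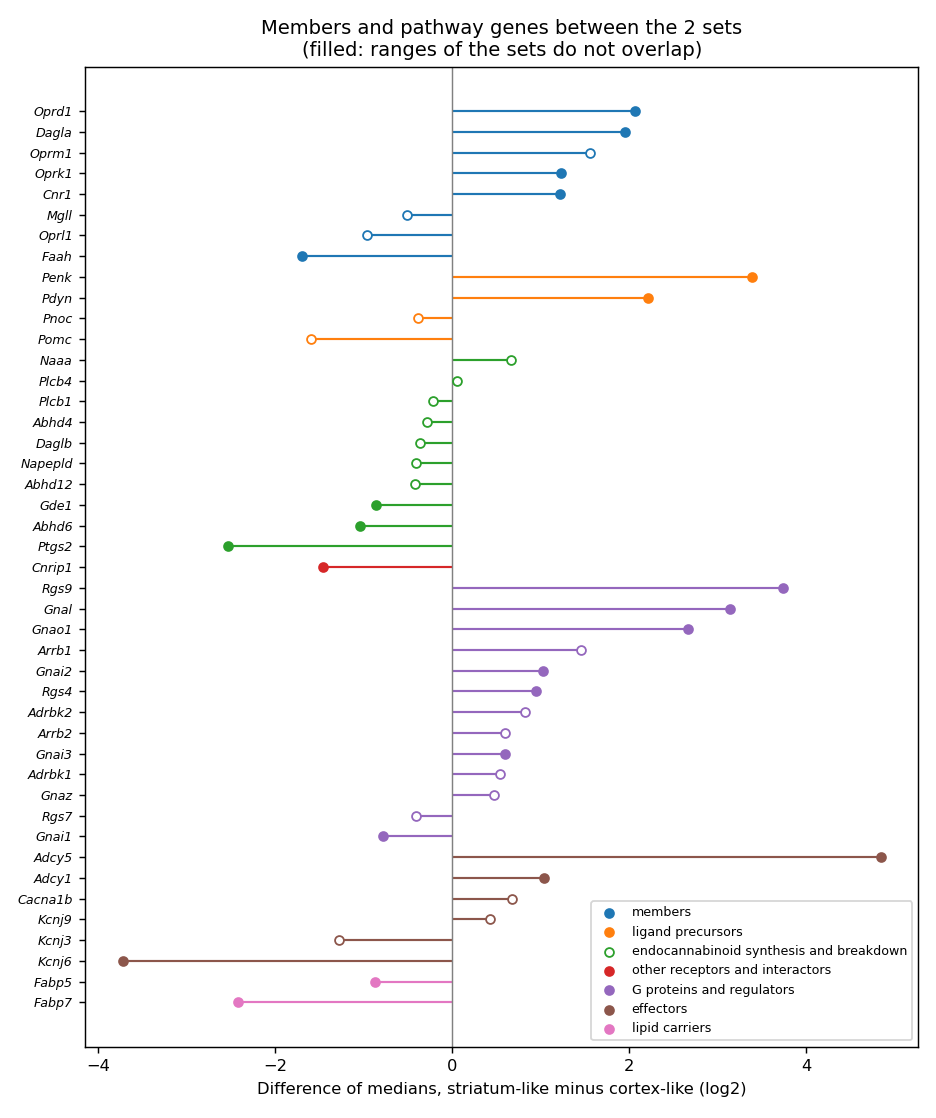
Difference of medians between the striatum-like and the cortex-like set on the log2(rescaled FPKM + 0.5) scale, 1 row per gene, for the 8 members and 36 pathway genes grouped by role. Filled points have ranges that do not overlap. Adcy5 is the farthest to the right and Kcnj6 the farthest to the left, and the members lie between −1.70 and 2.07.

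The labels define comparisons of genotype within a line and tissue, which ask what the edited Htt alleles change. Each was fitted with limma on 12 libraries with the labelled sex as a covariate, and a gene was called at a Benjamini-Hochberg adjusted p under 0.05 over all genes of the fit. The labels do not say that libraries of 1 group came from separate mice beyond their numbers, so p-values measure the spread between these libraries. In the comparison of KO/+ with +/+ in the libraries labelled striatum, all 12 of them striatum-like, Oprd1 was called as higher and Faah as lower. This was 2 of 8 members, against 6.91% of all genes tested.

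Oprd1 was at 5.96, 6.74, 8.34, 7.93, 8.64 and 7.44 in the libraries labelled KO/+ and at 4.17, 4.85, 6.46, 5.55, 6.30 and 5.60 in those labelled +/+. The groups overlapped, and all 6 KO/+ values were above the +/+ median. The means were 7.51 ± 1.01 and 5.49 ± 0.867 (SD, n = 6 each), a log2 fold change of 0.42 (SE 0.10, limma adjusted p = 0.0351).

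Faah was at 3.71, 4.33, 5.08, 2.96, 2.82 and 2.94 in KO/+ and at 5.47, 4.56, 4.62, 6.42, 5.77 and 5.49 in +/+. All 6 KO/+ values were below the +/+ median, and the groups overlapped through the KO/+ library at 5.08. The means were 3.64 ± 0.916 and 5.39 ± 0.706 (SD, n = 6 each), a log2 fold change of −0.53 (SE 0.14, limma adjusted p = 0.0430). The other 6 members did not pass. Among these, Oprl1 had a log2 fold change of −0.35 (limma adjusted p = 0.0577) and Cnr1 of 0.29 (limma adjusted p = 0.123).

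The calls of Oprd1 and Faah were sensitive to the libraries and to the scaling. Leaving out any of the 12 libraries other than +/+ male 3 reduced the 2 calls to 1 or 0. Among all genes, 560 to 1011 were called in those fits, against 1093 with all 12 libraries. On FPKM as deposited, Oprd1 had an adjusted p of 0.213 and Faah of 0.0729 in limma, and neither was called in the fit of all 30 libraries labelled striatum. Of all genes, 306 of 15500 and 135 of 15904 were called there.

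Markers of regions and cell types differed along with these genes. Of 47 markers tested, 8 were higher and 8 were lower in the libraries labelled KO/+. The 3 thalamus markers summed to 7.24 to 14.6 in KO/+ and to 35.5 to 60.7 in +/+, and the 3 hypothalamus markers to 0 to 1.55 and to 5.94 to 132, with 1 of them listed at 0 in all KO/+ libraries. The 8 markers of striatal projection neurons summed to 1323 to 1669 and to 896 to 1286. The 2 oligodendrocyte markers summed to 406 to 469 in KO/+ and to 484 to 606 in +/+. None of these ranges overlapped between the groups, while those of the other marker lists did. The part of such tissue differences in the levels of Oprd1 and Faah was not tested. Of 34 pathway genes tested, 7 were higher and 4 were lower. Those with the smallest adjusted p were Plcb4, a phospholipase (log2 fold change −1.46), Napepld, which makes the precursors of anandamide (−0.65), and Penk (0.54), with limma adjusted p of 0.00131, 0.00177 and 0.00523.

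In the libraries labelled cortex, which in the KO line were striatum-like as well, no member passed between KO/+ and +/+. Only 14 of 15820 genes (0.0885%) were called there. Oprd1 was at 7.24 ± 0.829 in KO/+ and 6.57 ± 0.887 in +/+ (SD, n = 6 each), with a log2 fold change of 0.13 and a 95% interval of −0.089 to 0.36. Faah had medians of 5.08 and 4.25, with a log2 fold change of 0.16 and an interval of −0.20 to 0.51. The difference of Faah thus had the opposite sign to that in the libraries labelled striatum. Whether the 2 labelled tissues differed was not tested.

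**Figure D3:**
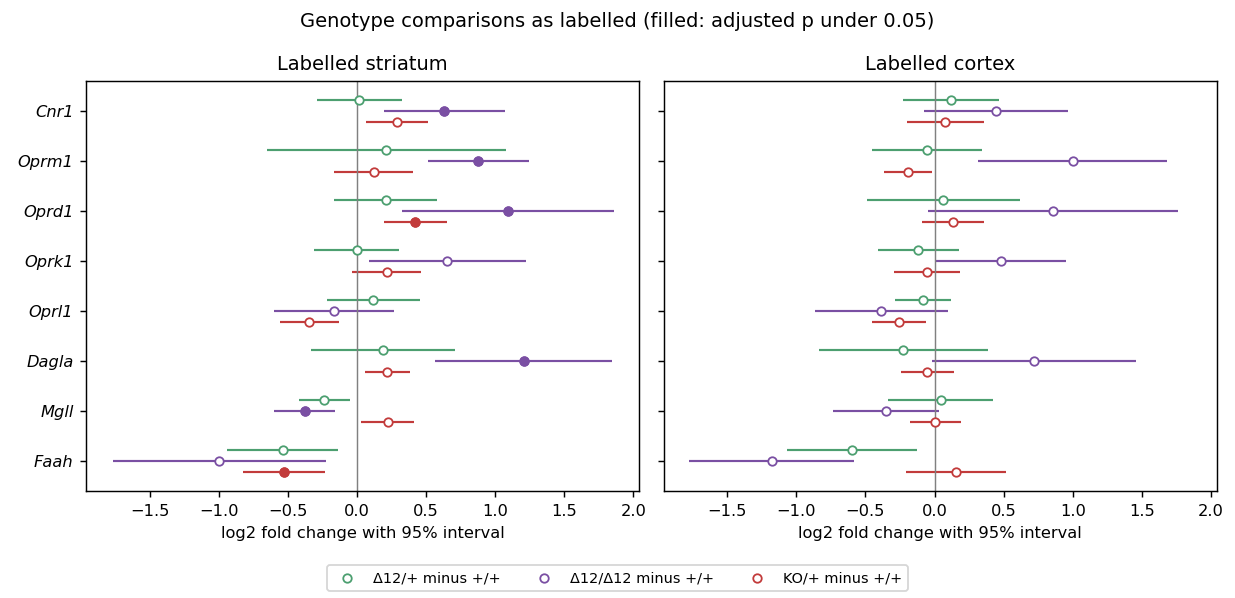
Log2 fold change with its 95% interval from limma for each member, by labelled genotype against +/+ of the same line, in the libraries labelled striatum (left) and cortex (right). Filled points passed an adjusted p of 0.05. Only Δ12/Δ12 and KO/+ in the libraries labelled striatum have filled points, and the Δ12/Δ12 groups, whose 6 libraries each belong to both sets, have wide intervals.

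Between Δ12/+ and +/+ of the Δ12 line, all of them cortex-like, no member was called in either labelled tissue, where 0.00663% (striatum) and 0.0662% (cortex) of all genes were called. At an unadjusted limma p under 0.05, 486 of 15077 and 1263 of 15095 genes passed. Faah had the largest differences of the members. In the libraries labelled striatum it was at 12.8, 15.0, 10.5, 10.1, 10.8 and 16.4 in Δ12/+ and at 21.7, 16.5, 12.2, 19.4, 25.8 and 16.6 in +/+. The log2 fold change was −0.54 (SE 0.18, limma adjusted p = 1.00). In those labelled cortex the means were 13.4 ± 2.44 and 21.1 ± 6.49 (SD, n = 6 each), and the log2 fold change was −0.60 (SE 0.21, limma adjusted p = 0.508). All Δ12/+ values of Faah were below the median of +/+ in either tissue, the ranges overlapped, and the differences did not pass the correction.

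Between Δ12/Δ12 and +/+ of the Δ12 line, the 6 libraries of the homozygotes belonged to different sets, labelled males to the cortex-like and labelled females to the striatum-like one. In the libraries labelled striatum, Cnr1 was at 21.1, 19.9 and 24.2 in the males and at 44.1, 46.9 and 58.4 in the females labelled Δ12/Δ12, against 15.6 to 23.0 in +/+. Only the female values were outside the range of +/+ by a wide margin. Faah was at 21.7, 16.0 and 12.5 in the males and 5.58, 4.65 and 4.08 in the females, against 12.2 to 25.8 in +/+.

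Cnr1, Oprm1, Oprd1 and Dagla were called as higher and Mgll as lower in this comparison, 5 of 8 members, against 28.3% of all genes. The log2 fold changes were 0.63 (SE 0.20) for Cnr1, 0.88 (SE 0.17) for Oprm1, 1.10 (SE 0.35) for Oprd1, 1.21 (SE 0.29) for Dagla and −0.38 (SE 0.10) for Mgll, with limma adjusted p between 0.0292 and 0.0430. The expression set as a covariate takes up the 3 libraries labelled female of Δ12/Δ12, so that the difference rests on the 3 males of each genotype. In that fit no member was called, and 21 of all 15467 genes were, against 4381 without this covariate. The log2 fold changes were 0.11 for Cnr1, 0.75 for Oprm1, 0.029 for Oprd1, 0.31 for Dagla and −0.34 for Mgll. Without the covariate for labelled sex no member was called either, and 9 of all 15467 genes were. Leaving out any 1 of the 6 libraries labelled female, 3 in each group, gave 0 or 1 call among the members. Among all genes it gave 5 to 33 calls, so the loss was not particular to the members.

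In the libraries labelled cortex no member passed between Δ12/Δ12 and +/+, and 0.924% of all genes were called. The differences had the same signs as in those labelled striatum. Oprm1 had a log2 fold change of 1.00 (limma adjusted p = 0.0702) and Faah of −1.18 (limma adjusted p = 0.0678), and both were called without the library labelled +/+ male 2. In that fit, 3844 of 15710 genes were called. With the spread estimated over all 30 libraries labelled cortex, 7 members were called, as were 7972 of 16041 genes.

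**Figure D4:**
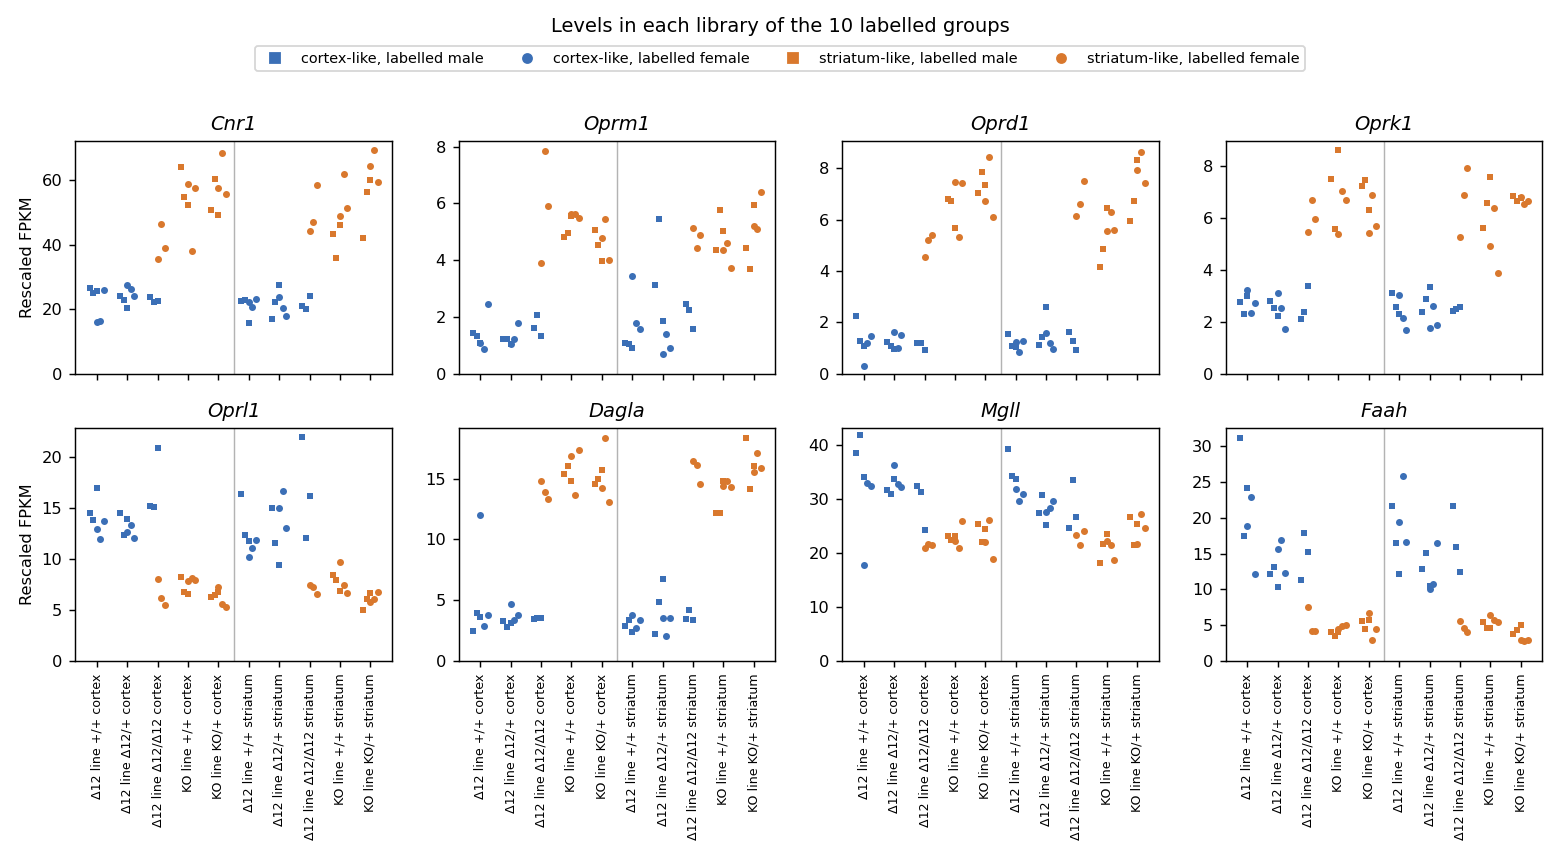
Rescaled FPKM of the 8 members in each of the 60 libraries, by labelled group (cortex to the left and striatum to the right of the line). Squares are labelled males and circles labelled females, with blue for cortex-like and orange for striatum-like libraries. In both Δ12/Δ12 groups, the 3 males lie with the Δ12 line and the 3 females with the KO line for Cnr1, Oprd1, Oprk1, Dagla and Faah.

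The +/+ libraries of the 2 lines have the same genotype by label, and the comparison between them is one of line and expression set together. All 8 members were called in both labelled tissues, where 79.4% (striatum) and 68.0% (cortex) of all genes were called. Cnr1, Oprm1, Oprd1, Oprk1 and Dagla were higher and Oprl1, Mgll and Faah were lower in the KO line. In the libraries labelled striatum, Dagla was at 13.8 ± 1.24 in the KO line and 3.09 ± 0.503 in the Δ12 line (SD, n = 6 each), and Faah at 5.39 ± 0.706 and 18.7 ± 4.73. In those labelled cortex, Mgll was at 23.0 ± 1.66 and 33.0 ± 8.31, and this call was lost in 7 of 12 fits that each left out 1 library. All +/+ libraries of the KO line were striatum-like and all of the Δ12 line cortex-like, so that line and expression set cannot be told apart.

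Between all libraries labelled striatum and all labelled cortex, no member and 0 of 16076 genes (0%) were called by limma, while 397 genes had an unadjusted p under 0.05. The log2 fold changes of the members ran from −0.065 for Dagla to 0.10 for Oprm1. Cnr1 was at 37.0 ± 17.3 and 37.9 ± 16.5 (SD, n = 30 each) in the 2 labelled tissues, and Oprd1 at 3.93 ± 2.82 and 3.88 ± 2.82. With the expression set as a covariate, no member passed either.

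Within a set, members were compared across the 30 libraries by Pearson's r and Spearman's rho on the log2 scale, with 2-sided permutation tests of 100000 permutations and Benjamini-Hochberg adjustment over 56 pairs. The permutations treat the 30 libraries as interchangeable, although these come from several labelled groups and some may share a mouse. The p-values therefore do not separate differences between groups from variation within them. In the striatum-like set, 5 of 28 pairs passed and all 5 were positive. Of all pairs of genes with a mean of at least 1 in that set, 2.12% had an absolute r at least as large as the weakest of these 5. Cnr1 and Oprd1 went together most closely, with r = 0.82 and rho = 0.84 (permutation p = 1e-05 for both, the smallest that these permutations can give, adjusted p = 0.000560). Without the 2 libraries farthest from the median of Cnr1, r was 0.77. Dagla, which makes 2-arachidonoylglycerol, and Mgll, which degrades it, had r = 0.74 and rho = 0.70 (permutation p = 2e-05 and 3e-05, adjusted p = 0.000560 and 0.000840), and r = 0.67 without the 2 farthest libraries.

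Oprd1 also went with Dagla (r = 0.67, rho = 0.64) and with Mgll (r = 0.65, rho = 0.63), with permutation p of r of 6e-05 and 0.0001 and adjusted p of 0.00112 and 0.00140. Those of rho were 0.00035 and 0.00029, both 0.00490 after adjustment. Without the 2 farthest libraries r was 0.64 and 0.56. Oprl1 and Faah, the receptor and the enzyme with lower levels in the striatum-like set, had r = 0.56 and rho = 0.56 (permutation p = 0.00099 and 0.00145, adjusted p = 0.00924 and 0.0162), and r = 0.50 without the 2 farthest. The 24 striatum-like libraries of the KO line alone gave r = 0.79 for Cnr1 and Oprd1, 0.78 for Dagla and Mgll, 0.73 and 0.65 for Oprd1 with Dagla and with Mgll, and 0.53 for Oprl1 and Faah. These libraries share a line, and tissue composition varies among them, as the marker sums show.

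In the cortex-like set, only Cnr1 and Oprd1 passed among 28 pairs, with r = 0.57 (permutation p = 0.00083, adjusted p = 0.00924) and rho = 0.44 (permutation p = 0.0151, adjusted p = 0.127). An absolute r at least as large was found in 3.47% of all pairs of genes of that set. Without the 2 libraries farthest from the median of Cnr1, r was 0.45. Without the 2 libraries that stood apart, r was 0.38 and no pair passed.

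**Figure D5:**
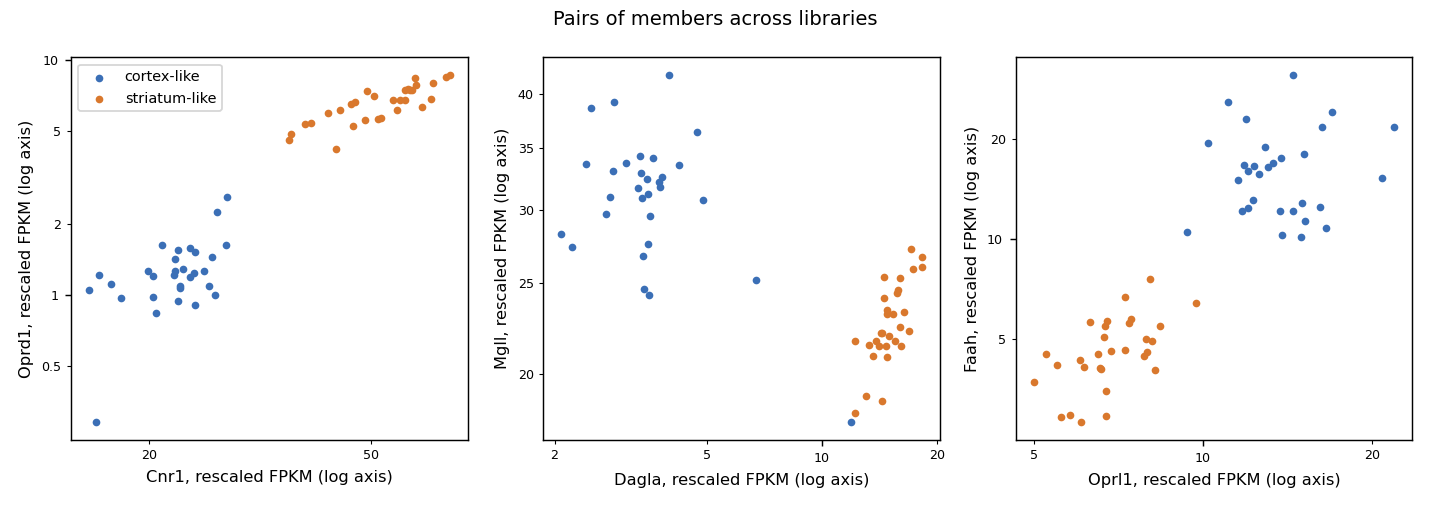
Rescaled FPKM of 3 pairs of members on log axes, 1 point per library, blue for the cortex-like and orange for the striatum-like set. In the striatum-like points Oprd1 rises along Cnr1 (r = 0.82), Mgll along Dagla (r = 0.74) and Faah along Oprl1 (r = 0.56), while the blue point beside the orange ones in the middle panel is the library labelled cortex Δ12-line +/+ female 1.

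The genes most like each member were sought by Pearson's r across the 30 libraries of a set, among 13974 genes in the striatum-like and 13530 in the cortex-like set with a mean of at least 1. In the striatum-like set, Cnr1 was much like Camk2n1, an inhibitor of a calcium-dependent kinase (r = 0.89). Oprd1 was most like Kcnip2, a potassium channel subunit (r = 0.93), and Akt2 (r = 0.92). Dagla was most like Ncan, a proteoglycan of the brain matrix (r = 0.90), and 6030419C18Rik (r = 0.88). Faah was most like Nrn1 (r = 0.91) and Galnt9 (r = 0.90), and Oprl1 like Apba1 (r = 0.86) and Col25a1 (r = 0.85). Mgll was most like Brk1 (r = 0.82) and Unc5a (r = 0.81), and Oprk1 like Mctp1 (r = 0.76) and Crym (r = 0.74). Oprm1 had the lowest leading values, with Spata13 (r = 0.68) and Tars2 (r = 0.67).

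In the cortex-like set other genes led. Cnr1 was most like Slc2a13 (r = 0.85) and Neurl1a (r = 0.82), and Mgll like Strn4 (r = 0.81) and Slc6a7 (r = 0.80). Oprd1, with Epb41l1 (r = 0.85, rho = 0.56) and Clic4 (r = 0.83, rho = 0.61), and Dagla, with Tm9sf4 (r = 0.85, rho = 0.66) and Znrf3 (r = 0.84, rho = 0.75), had lower rank correlations than r. The lowest Oprd1 and the highest Dagla of the set were in the library labelled cortex Δ12-line +/+ female 1. Faah was most like Rpl31-ps14 (r = 0.75) and Daglb (r = 0.71), the second diacylglycerol lipase. Oprk1 was most like Plekhh1 (r = 0.69) and Plxnb3 (r = 0.66), Oprl1 like Ppp2r5a (r = 0.73) and Fbxo33 (r = 0.73), and Oprm1 like Pax6 (r = 0.64) and Slc41a1 (r = 0.59). These values describe libraries that share tissue composition and depth, and carry no test.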

How the data were processed

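The 8 genes, the gene lists and the tests were chosen with earlier results of these data known. RNA was depleted of rRNA, prepared with a directional kit and sequenced on a NovaSeq. The submitters' processing notes name bcl2fastq 2.20, Trimmomatic 0.30, TopHat2 2.0.14, SAMtools 1.3, HTSeq 0.6.1p1 and the build GRCm38.p4. The authors deposited FPKM per gene for each library, with the bounds of a 95% interval, in the layout of Cufflinks gene-level output and without counts. Of 47597 entries, 23 whose status was not OK in every library were left out. FPKM were rescaled by the median ratio to the geometric mean over the 13235 entries above 0 in all 60 libraries. Tests used limma 3.58.1 in R 4.3.3 on log2(rescaled FPKM + 0.5), a scale that understates changes of low genes, for genes with a mean of at least 0.5, with the labelled sex as a covariate. The 8 members passed this filter in every fit. Correlations were computed in Python 3.11.15 with numpy 2.4.6 and scipy 1.17.1. The depth is an estimate from the width of the deposited intervals, over single-transcript genes with a length of 2000 nucleotides or more and 20 fragments or more.

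Libraries were grouped by their labels. The third KO/+ female of the striatum was placed in the KO line by its genotype label, although its title gives the other line. Described for every comparison are all 8 members, up to 3 called pathway genes with the smallest adjusted p, marker genes, and for each member the 2 genes with the highest r in a set, of which 1 is not reported here. Each fit was repeated with other scalings, another pseudocount, no filter, other covariates, a replicate block or more libraries, and without each library. The limma script was tested on simulated data.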

Additional observations from a re-analysis of the deposited data

Results flagged for a closer look

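Of 80 sets of 6 libraries (8 members in 10 labelled groups), 7 held a highest or lowest value farther from the others than Dixon's 95% critical value allows, where chance flags about 1 set in 20. All 7 are in the Δ12 line. Dagla in the library labelled cortex +/+ female 1 was at 12.0, against 3.97 for the next library. Oprd1 in the library labelled striatum Δ12/+ male 3 was at 2.60 against 1.58. Oprm1 was the highest of its group in the libraries labelled cortex +/+ female 3 (2.46 against 1.42), striatum +/+ female 1 (3.46 against 1.77) and cortex Δ12/+ female 3 (1.79 against 1.24). Oprl1 was the highest in striatum +/+ male 1 (16.3 against 12.3). Cnr1 was the lowest in striatum +/+ male 3 (15.6 against 20.6).

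Over the 8 members and all comparisons of an edited genotype with +/+, 8 cases split by labelled sex. In these, all 3 labelled males were on one side of the mean of their +/+ counterparts and all 3 labelled females on the other. The difference between the labelled sexes was not tested, and the share of all genes with such a split was not counted. Sex-linked transcripts went with the labelled sex in only 30 of the 60 libraries, so the split is one of labels. For Δ12/Δ12 against +/+ the cases were Oprk1 in the libraries labelled striatum (mean log2 difference 1.37 in females and −0.068 in males), and Cnr1 (1.06 and −0.17), Oprd1 (2.00 and −0.30) and Oprl1 (−0.93 and 0.16) in those labelled cortex. All Δ12/Δ12 libraries labelled female were striatum-like and all labelled male cortex-like, so labelled sex and expression set cannot be told apart there. For Δ12/+ against +/+ they were Oprm1 in the libraries labelled striatum (−0.86 in females and 1.29 in males), and Cnr1 (0.44 and −0.20), Oprd1 (0.43 and −0.30) and Mgll (0.33 and −0.24) in those labelled cortex.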

How the results depend on the processing

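No alternative changed the direction of a difference between the sets. On FPKM as deposited, which moved the median difference of all genes from 0.026 to −0.18, the log2 difference was 0.85 for Cnr1, 1.76 for Oprd1, 0.88 for Oprk1, −1.26 for Oprl1 and −0.73 for Mgll. It was 1.84 for Cnr1 and −0.13 for Mgll with quantile normalization, and 2.37 for Oprd1 with a pseudocount of 0.1. The other values moved by less than the spread between libraries, also without the 2 libraries that stood apart, a choice made after seeing the data.

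The number of pairs of members that passed was 11 in the striatum-like set on FPKM as deposited. In the cortex-like set it was 2 on FPKM as deposited, 2 with quantile normalization and 0 without the 2 libraries that stood apart.

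In KO/+ against +/+, labelled striatum, 0 members were called on FPKM as deposited, without the filter and in the fit of all 30 libraries of the tissue, and 0 to 2 when 1 library was left out. Of all genes, 306 of 15500, 1010 of 26367 and 135 of 15904 were called in these fits, and 560 to 1243 when 1 library was left out. In Δ12/Δ12 against +/+, labelled striatum, 3 members were called without the filter, 0 without the covariate for labelled sex and 0 with the expression set as a covariate, which leaves the males alone to set the difference, and 0 to 6 when 1 library was left out. In those labelled cortex, 7 were called in the fit of all 30 libraries, as were 7972 of 16041 genes. When 1 library was left out, 0 to 2 members were called. The cause was not tested. For the +/+ libraries of the lines in those labelled cortex, 7 to 8 members and 10109 to 11284 genes were called when 1 library was left out. Scaling over the 12 libraries of each fit, also chosen after seeing the data, gave the same counts of members to within 1.5 times.

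With a replicate block on the labelled replicate number, 1 member was called in KO/+ against +/+ labelled striatum (Oprd1) and 0 in Δ12/Δ12 against +/+ labelled striatum, and the block changed no other count of members. Of all genes, 302 of 15808 and 5 of 15467 were called in these fits. Libraries of the compared groups that share a number did not deviate together (mean correlation of deviations −0.069 to 0.028 over the comparisons). In no comparison did every library correlate best with its own number. This check paired libraries of different genotype or line within a labelled tissue. It did not pair libraries labelled cortex with those labelled striatum, so it cannot tell whether these share a mouse.

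Directions that turned belonged to differences that were not called. On FPKM as deposited these were Cnr1 in Δ12/+ labelled striatum (−0.036) and Cnr1 (−0.088), Oprd1 (−0.023) and Mgll (−0.16) in KO/+ labelled cortex. With quantile normalization it was Oprl1 in Δ12/+ labelled cortex (0.0042). With the expression set as a covariate they were Oprk1 (−0.068) and Oprl1 (0.28) in Δ12/Δ12 labelled striatum, and Cnr1 (−0.17), Oprd1 (−0.30), Oprk1 (−0.046) and Oprl1 (0.16) in Δ12/Δ12 labelled cortex. With 1 library left out, the ranges were −0.063 to 0.089 for Oprk1, −0.074 to 0.081 for Cnr1, −0.057 to 0.46 for Oprm1 in Δ12/+ labelled striatum, −0.16 to 0.21 for Oprd1, −0.38 to 0.041 for Dagla, −0.12 to 0.11 for Mgll, −0.15 to 0.091 for Oprm1 in Δ12/+ labelled cortex, and −0.039 to 0.061 for Mgll, −0.030 to 0.14 for Cnr1 in KO/+ labelled cortex.

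The number of genes called among all genes varied more. In Δ12/Δ12 against +/+ it was between 5 and 8067 for the libraries labelled striatum and between 9 and 7972 for those labelled cortex over the alternatives that kept all libraries, and in KO/+ against +/+ between 135 and 1102 for those labelled striatum and between 0 and 110 for those labelled cortex. In Δ12/+ against +/+ it was between 0 and 2 and between 3 and 53. On FPKM as deposited, the calls in KO/+ labelled striatum were 23 higher and 283 lower, against 555 and 538, and those between the lines labelled striatum were 5000 higher and 7053 lower, against 6588 and 5881. In Δ12/Δ12 labelled striatum they were 1291 and 3045, against 2278 and 2103. With quantile normalization they were 43 and 35 in Δ12/Δ12 labelled cortex, against 43 and 102, and 20 and 9 in Δ12/+ labelled cortex, against 2 and 8.

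The tables hold no counts, and the intervals of the authors limit what low genes can show. Their upper bound was a median of 71.7% above the value for Oprm1 in the cortex-like set and 21.3% for Faah, against 6.00% for Cnr1. These are bounds for single libraries, and the fits give the error of each comparison.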
